A study of Homo sapiens with 4 samples.

Results

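The intestinal differentiation and brush border genes are a set of 36 genes of the absorptive cell of the gut, listed by symbol and looked up among the 18417 genes that had a probe set naming them alone. Of the 36, 32 had such a probe set. Of these, 26 had a mean over the 4 arrays above the signal minimum of 5.64 (log2), the 30th percentile of all rows, and were tested, among 14547 genes in all. SI, MEP1B, SLC5A1, SLC15A1, APOB and MTTP lay under that minimum. PDZK1 and FABP1 stand on probe sets that name another gene as well and are not used here, and HNF4A and PHGR1 are not analysed here.

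The cells were SNU-16, a human gastric carcinoma cell line, grown in BALB/c nude mice, which lack mature T cells but keep other host cells. SNU-16 cells were placed in the stomach wall, and in round 1 cells were recovered from ovarian metastases (ovary line) and from the tumour in the stomach wall (stomach line). Both lines were cultured for 7 days and implanted again, giving the round 2 ovary line and the round 2 stomach line. RNA of cell pellets was measured on 1 array per line, 4 in all, so each site and each round has 2 arrays, and precision is limited by this small number. Because a round 2 line descends from the round 1 line of its site, the spread within a site is between successive passages and may in part be technical. No drug, transgene or untreated parental array enters, and the labels state neither the age nor the number of the mice. The free-text descriptions of the round 2 samples each name the other site once. The titles were followed, and values with the round 2 arrays exchanged are given where they matter.

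Enterocytes line the small intestine and carry on their free surface a brush border, a carpet of microvilli held up by actin bundles and capped by digestive enzymes and nutrient transporters. Their identity rests on homeobox factors of the CDX family and on nuclear receptors of the HNF4 family, which switch on genes for adhesion, digestion and lipid export. Gastric mucosa does not normally make many of these products, whereas intestinal metaplasia of the stomach and many gastric carcinomas do.

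The label was checked against regulator, adhesion and structural genes of the set. Above the signal minimum on every array lay the probe sets of CDX1, CDX2, HNF4G, the cadherin CDH17, the galectin LGALS4 and the actin bundler VIL1. In all, 25 of the 26 tested genes did so, a count that their choice by mean signal largely fixes. Markers of other cells lay above the minimum on every array too, such as CD79A, COL1A1 and the goblet and secretory markers MUC2, ATOH1 and SPDEF. The check therefore does not tell absorptive from secretory cells, and a value above the minimum does not by itself show that a gene is expressed. MGAM stood above the minimum on 1 array only and was under it on the other 3. The probe sets of SI, SLC5A1, SLC15A1, APOB and MTTP were under the minimum on every array. A value near the minimum does not tell absence from a weak signal, and levels of different probe sets were not set against each other. In pelleted cells, fewer cells that make a transcript and less transcript per cell cannot be told apart.

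**Figure D1:**
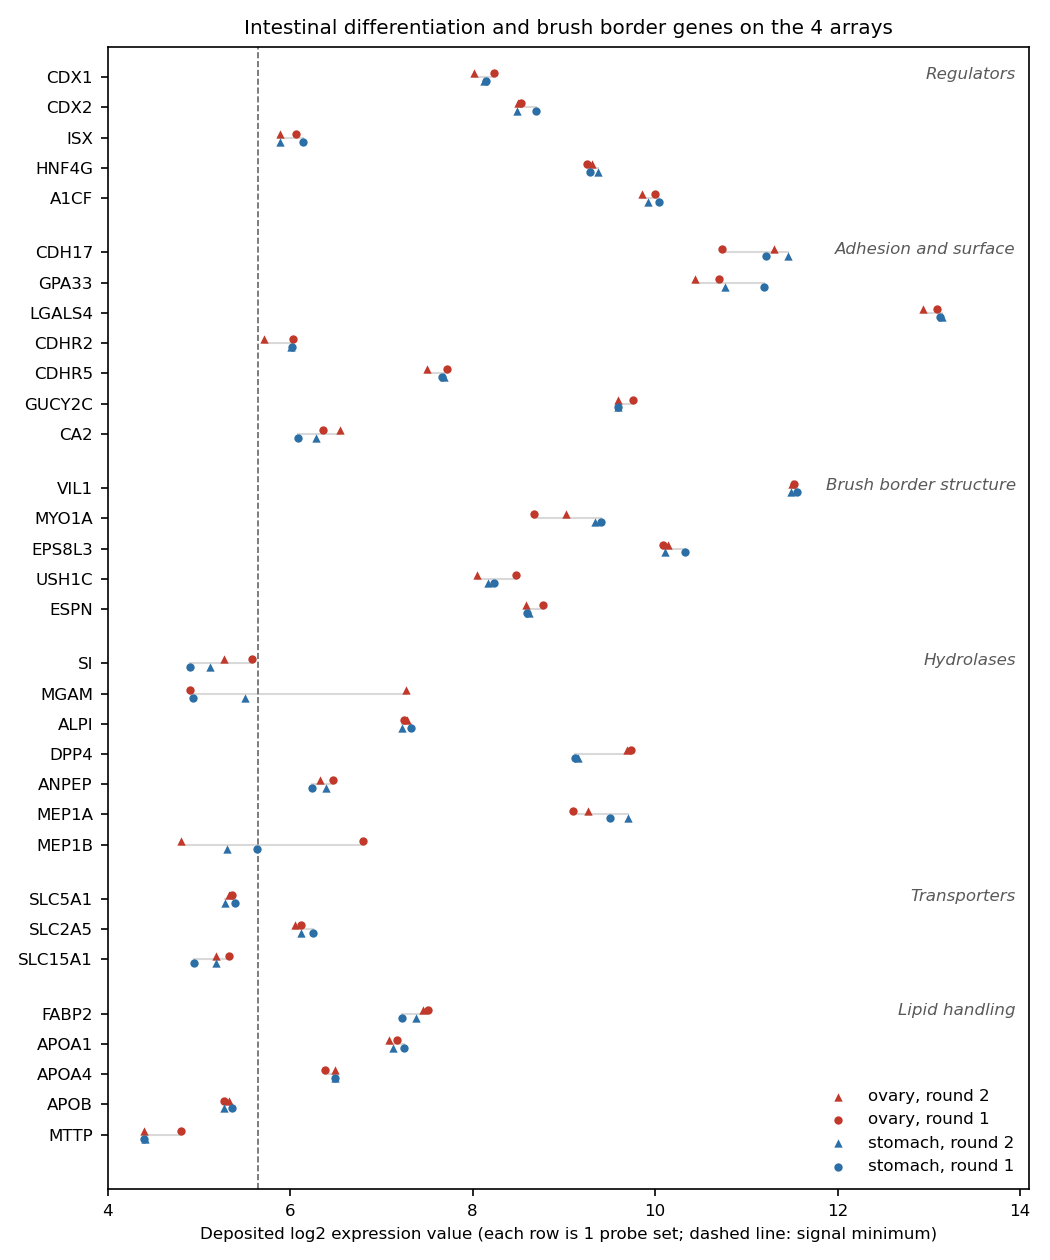
Deposited log2 expression value (horizontal axis) of the 32 measured genes, 1 row per probe set and grouped by role; red is ovary and blue stomach, triangles are round 2 and circles round 1, and the dashed line is the signal minimum. Most rows are tight clusters of 4 points; DPP4, MEP1A and MYO1A separate by colour, and MGAM and MEP1B each have 1 ovary array far to the right.

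The comparison of sites asked which of these genes differed between ovary lines and stomach lines. By mean difference among genes whose groups did not overlap, DPP4 stood out as higher in the ovary lines, and MEP1A, MYO1A and GPA33 as lower in them. Most genes differed little: 19 of the 26 genes had a mean site difference under 0.2 (log2) in size, and in 18 the difference was smaller than the larger of the SDs of the sites. In limma's test across all 14547 genes, 0 genes passed an adjusted p of 0.05 (background 0%), so 0 of the 26 did. At an unadjusted p under 0.05 stood 3 of the 26, DPP4, MYO1A and MEP1A, against 2.6% of all genes tested. With the round as a replicate block, 0 of the 26 passed after adjustment and 6 had an unadjusted p under 0.05 (those 3, GPA33, CA2 and CDH17), against 6.3% of all genes. In that fit the smallest adjusted p of the 26 was 0.654, for DPP4.

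DPP4 encodes dipeptidyl peptidase 4 (CD26), a brush border enzyme that trims dipeptides from peptides and inactivates incretin hormones. Its level was 9.73 in round 1 and 9.69 in round 2 in the ovary lines, against 9.13 and 9.16 in the stomach lines (probe set 8056222). The groups did not overlap, and within a lineage round 2 minus round 1 was -0.042 in ovary and 0.034 in stomach. The mean was 9.71 ± 0.029 in ovary and 9.14 ± 0.024 in stomach (SD, n = 2 each), a log2 difference of 0.57 ± 0.087 (limma standard error), or 1.48-fold. The unadjusted p was 0.0016 and the adjusted p was 1 by limma. Judged by its round 2 difference of 0.53, the smaller one, DPP4 was among 20 genes, 0.137% of those tested, that were at least as far above stomach in both rounds. The difference ran between 0.55 and 0.59 when each array was left out in turn, whereas with the round 2 arrays exchanged it was 0.038.

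MEP1A, the alpha subunit of meprin, a metalloprotease of the same membrane, went the other way. Its level was 9.10 in round 1 and 9.26 in round 2 in the ovary lines, against 9.51 and 9.70 in the stomach lines (probe set 8120088). Both ovary values were under both stomach values, with a difference of -0.41 in round 1 and -0.44 in round 2. The mean difference was -0.42 ± 0.12 with an adjusted p of 1 by limma, and 0.241% of the tested genes were at least as far under stomach in both rounds. MYO1A, the myosin that ties the actin bundles of microvilli to the membrane, stood at 8.68 and 9.02 in the ovary lines of rounds 1 and 2, against 9.41 and 9.34 in the stomach lines (probe set 7964316). Its groups did not overlap either. The difference was -0.53 ± 0.14 on average (adjusted p of 1 by limma), with -0.74 in round 1 and -0.32 in round 2.

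GPA33, a cell surface antigen of intestinal epithelium, had 10.69 and 10.43 in the ovary lines of rounds 1 and 2, against 11.19 and 10.76 in the stomach lines (probe set 7922029). The ovary line was lower in both rounds, by -0.50 and -0.33, but the higher ovary value came within 0.1 of the lower stomach value. Its mean difference was -0.41 ± 0.19 (adjusted p of 1 by limma) and lay between -0.63 and -0.20 without single arrays. With the round 2 arrays exchanged the site difference was 0.014 for MEP1A, -0.21 for MYO1A and -0.085 for GPA33. CDH17, the liver-intestine cadherin, stood at 10.73 and 11.30 in the ovary lines, against 11.21 and 11.46 in the stomach lines, so that the groups overlapped (probe set 8151795). The mean difference of -0.32 ± 0.22 was -0.035 without the round 1 ovary array and -0.60 without the round 2 ovary array.

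The promoters of DPP4, GPA33 and MYO1A are shown because they are 3 of the 4 tested genes with the largest site differences among those whose groups did not overlap; the other is MEP1A. They are the 250 bases before the RefSeq gene start in GRCh38.p14, all on the minus strand, at chr2:162074216-162074465 for DPP4, chr1:167090378-167090627 for GPA33 and chr12:57051199-57051448 for MYO1A, read 5′ to 3′ with motif matches in capitals.
DPP4: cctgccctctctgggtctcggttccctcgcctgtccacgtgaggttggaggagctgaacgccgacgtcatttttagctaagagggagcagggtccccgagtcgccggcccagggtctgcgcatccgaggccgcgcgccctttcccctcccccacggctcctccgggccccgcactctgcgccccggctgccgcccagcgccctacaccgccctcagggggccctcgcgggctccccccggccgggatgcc
GPA33: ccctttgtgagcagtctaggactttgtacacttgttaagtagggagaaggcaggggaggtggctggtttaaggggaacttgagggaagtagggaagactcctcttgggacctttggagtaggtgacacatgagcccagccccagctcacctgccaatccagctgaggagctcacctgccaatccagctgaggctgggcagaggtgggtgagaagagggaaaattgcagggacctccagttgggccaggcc
MYO1A: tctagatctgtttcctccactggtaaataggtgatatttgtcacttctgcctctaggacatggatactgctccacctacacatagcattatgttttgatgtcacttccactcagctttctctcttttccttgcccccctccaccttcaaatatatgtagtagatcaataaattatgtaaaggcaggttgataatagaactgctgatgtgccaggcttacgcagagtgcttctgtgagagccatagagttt
All 3 windows are in lower case throughout, so none of them holds any of the 4 motifs searched on either strand. The letters searched for CDX factors, a core of their binding site, were TTTATG. Part of the binding site of HNF1 was searched for with the letters GTTAAT. For nuclear receptors of the HNF4 family a stretch of their site served, CAAAGTCCA. The zinc finger factors of the GATA family were represented by the letters AGATAA. The windows differ in base composition, with 73.6% G and C for DPP4, 56.8% for GPA33 and 42% for MYO1A, where the median of all 35116 promoters was 58%. No match says only that these letters are not in this window.

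**Figure D2:**
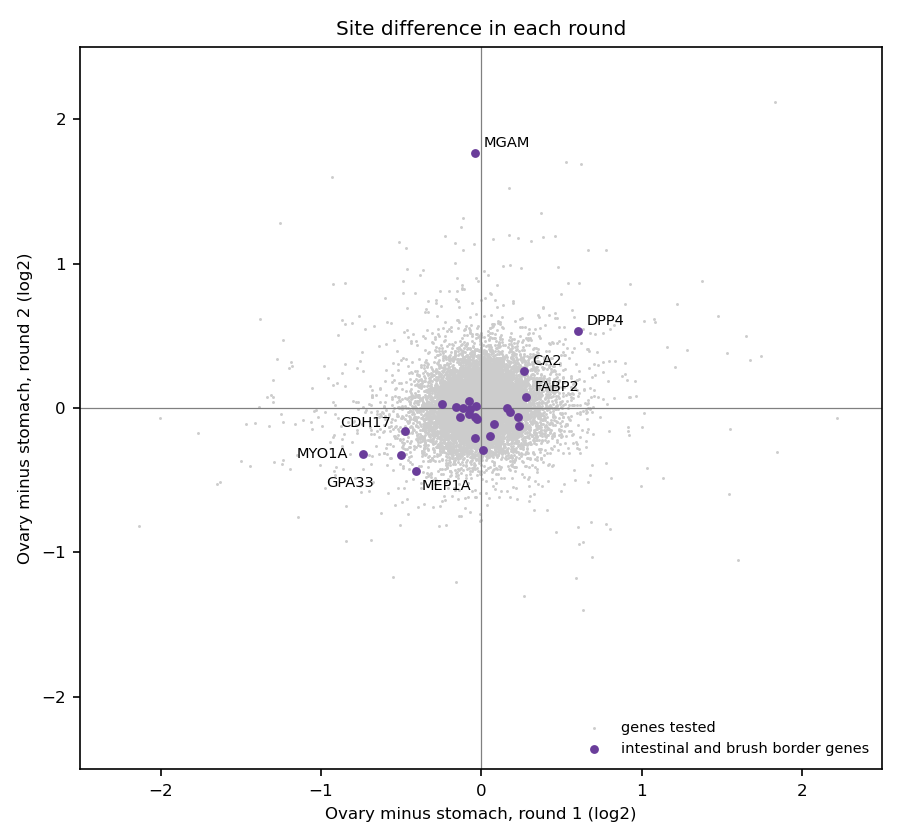
Ovary minus stomach in round 1 (horizontal axis) and in round 2 (vertical axis), in log2 units, for the 14547 tested genes (grey) and the 26 tested intestinal and brush border genes (purple). DPP4 lies in the upper right, MYO1A, GPA33, MEP1A and CDH17 in the lower left, and MGAM is high in round 2 alone.

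Counting every tested gene of the set, 7 of 26 (26.9%) had groups that did not overlap between the sites, against 24.6% of all genes. Of the 7, 3 were higher in ovary (DPP4, CA2 and FABP2; background 13.4%) and 4 were lower (MYO1A, MEP1A, GPA33 and LGALS4; background 11.2%). The count therefore lay near the background, while the mean difference was below 0 in 18 of 26, against 49.3% of all genes. The median of the 26 differences was -0.050, where that of all tested genes was 0.0016. Without the round 1 stomach array the median of the 26 was 0.0051 and without the round 2 ovary array -0.0076, so its sign turned without 1 of the 4 arrays.

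CA2, a cytosolic carbonic anhydrase, had 6.36 and 6.54 in the ovary lines of rounds 1 and 2, against 6.09 and 6.29 in the stomach lines. Round 1 gave a difference of 0.27 and round 2 one of 0.26. FABP2, which carries fatty acids inside enterocytes, differed by 0.28 and 0.074. LGALS4, a galectin that organises apical membrane, differed by -0.038 in round 1 and -0.21 in round 2. With the round 2 arrays exchanged, the mean differences were 0.0040 for CA2, 0.10 for FABP2 and 0.085 for LGALS4. These 3 were separated by gaps smaller than those of DPP4 and MEP1A.

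The regulators did not separate by site, and all 5 tested had differences under 0.1 in size. CDX2, the homeobox factor that sets intestinal identity, had 8.53 and 8.49 in the ovary lines of rounds 1 and 2, against 8.69 and 8.48 in the stomach lines (probe set 7970727). CDX1, its close relative, had 8.23 and 8.01 in ovary and 8.15 and 8.12 in stomach. HNF4G, a nuclear receptor of enterocytes, had 9.26 and 9.31 in ovary and 9.28 and 9.38 in stomach. The groups overlapped for all of them, with mean differences of -0.075 for CDX2, -0.013 for CDX1 and -0.049 for HNF4G. A1CF, the RNA-binding partner of the apolipoprotein B editing enzyme, differed by -0.052, and ISX, a homeobox factor that represses carotenoid cleavage in the gut, by -0.038.

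The other tested structural genes of the brush border had overlapping groups. VIL1, which bundles and severs actin in microvilli, had 11.52 and 11.50 in the ovary lines of rounds 1 and 2, against 11.56 and 11.49 in the stomach lines. All 4 values lay within 0.1 of each other, and the mean difference was -0.0092 ± 0.088. The actin bundler ESPN differed by 0.074, the capping protein relative EPS8L3 by -0.11 and USH1C, the scaffold that anchors tip-link cadherins, by 0.056. For USH1C the difference was 0.24 in round 1 and -0.12 in round 2, and for EPS8L3 it was -0.24 and 0.025. CDHR2 and CDHR5, the protocadherins that link microvilli at their tips, differed by -0.14 and -0.069 on average, CDHR2 by 0.011 in round 1 and -0.29 in round 2. For GUCY2C, the receptor of guanylin, the value was 9.60 on 3 arrays, equal to the deposited decimals, and 9.76 on the round 1 ovary array. Values equal on 3 or more arrays occurred in 1.7% of the tested genes, so an SD of 0 there is no measure of precision.

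MGAM, maltase-glucoamylase, which finishes starch digestion, had the largest difference between single arrays of the 32 measured genes. Its level was 4.90 in round 1 and 7.27 in round 2 in the ovary lines, against 4.94 and 5.51 in the stomach lines (probe set 8136662). Only the round 2 ovary array stood apart, and it alone carried the mean of 5.65 over the signal minimum. The site difference was -0.038 in round 1 and 1.77 in round 2, 0.86 ± 0.80 on average (adjusted p of 1 by limma), and -0.32 without the round 2 ovary array. MEP1B, the beta subunit of meprin, was just under the minimum with a mean of 5.64 (5.636 unrounded), and is named because it too had 1 high ovary array, a choice made after its values were seen. It had 6.80 and 4.80 in the ovary lines of rounds 1 and 2, against 5.64 and 5.31 in the stomach lines. So the high array was the ovary line of round 1 for MEP1B and that of round 2 for MGAM. SI, sucrase-isomaltase, the sister enzyme of MGAM, had 5.58 and 5.27 in the ovary lines of rounds 1 and 2, against 4.90 and 5.12 in the stomach lines. SI was under the minimum on every array.

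Between single arrays, 2 of the 26 genes were at least 1.5-fold apart by site in round 1 (DPP4 and MYO1A; background 2.03%) and 1 in round 2 (MGAM; background 1.22%). At 2-fold the counts were 0 in round 1 (background 0.433%) and 1 in round 2, again MGAM (background 0.22%). MGAM passed the signal minimum only through its round 2 ovary array, so nothing is read from its place in these counts or in those between rounds. The hydrolases ALPI, an alkaline phosphatase, and ANPEP, aminopeptidase N, differed by -0.013 and 0.083. ANPEP had 6.47 and 6.33 in the ovary lines of rounds 1 and 2, against 6.24 and 6.39 in the stomach lines, so that the groups overlapped. SLC2A5, the fructose transporter and the 1 tested transporter of 3, differed by -0.096. APOA1 and APOA4, apolipoproteins of chylomicrons and high-density lipoprotein, differed by -0.061 and -0.056. Each had a further probe set, which placed APOA1 at 7.04 and 6.93 in ovary and 7.11 and 6.97 in stomach in rounds 1 and 2. That of APOA4 had 5.97 and 6.08 in ovary and 5.997 on both stomach arrays, so its site difference had the opposite sign to that of the first probe set.

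The promoters of SI and MGAM are printed because they are the measured hydrolases with a motif match. SI lies on the minus strand at chr3:165078497-165078746 and MGAM on the plus strand at chr7:141995629-141995878 (250 bases each, RefSeq, GRCh38.p14), with matches in capitals: TTTATG is the CDX core, and ATTAAC is the reverse complement of the HNF1 letters GTTAAT.
SI: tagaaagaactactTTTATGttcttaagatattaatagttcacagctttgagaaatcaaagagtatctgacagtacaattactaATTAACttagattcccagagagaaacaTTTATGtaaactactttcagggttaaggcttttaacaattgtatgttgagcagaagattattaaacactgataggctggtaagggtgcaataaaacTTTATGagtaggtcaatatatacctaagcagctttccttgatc
MGAM: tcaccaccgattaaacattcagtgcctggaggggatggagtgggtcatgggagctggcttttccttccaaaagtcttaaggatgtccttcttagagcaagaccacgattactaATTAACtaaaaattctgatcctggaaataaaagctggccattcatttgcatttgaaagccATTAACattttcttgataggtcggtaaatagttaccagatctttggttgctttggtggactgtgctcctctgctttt
SI has 3 CDX cores and 1 HNF1 match, and MGAM has 2 HNF1 matches. Both share a run of 14 letters around an HNF1 match, attactaATTAACt, which has its first base at -173 from the start of SI and at -144 from that of MGAM. Their G and C shares are 31.6% and 41.6%. The search used both strands and counted overlaps, and 21 of the 32 measured genes had a promoter entry. The CDX core was in 2 of the 21 (9.52%), against 9.64% of 35116 promoters, and the HNF1 letters in 3 (14.3%), against 6.23%. AGATAA was in 3 (14.3%), against 9.17%, and CAAAGTCCA in 0, against 0.325%. A match is a description of the window and not a bound site.

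**Figure D3:**
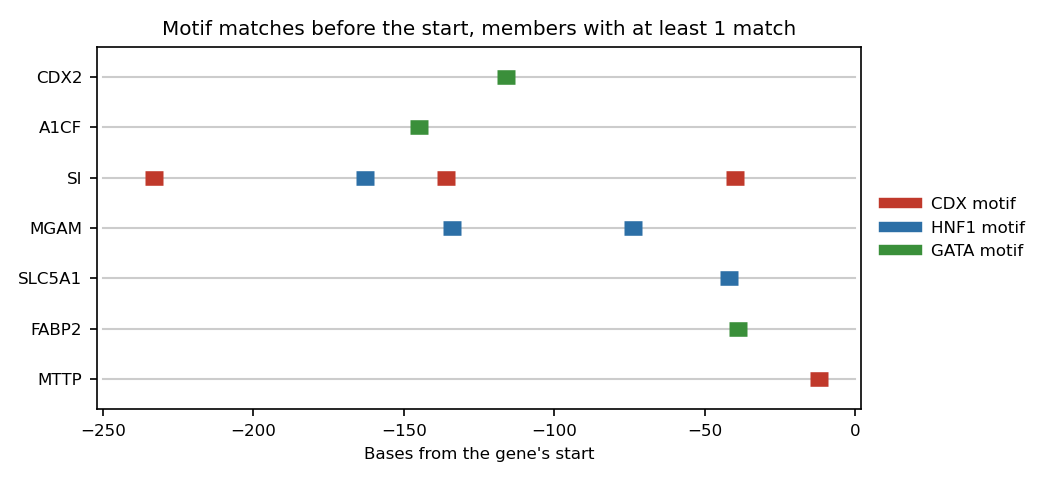
Positions of CDX, HNF1 and GATA motif matches in the 250 bases before the gene start (horizontal axis, bases from the start), 1 line for each of the measured genes with at least 1 match. SI carries 3 CDX matches and 1 HNF1 match, and MGAM 2 HNF1 matches.

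The comparison of rounds asked how the programme differed between round 2 and round 1 lines. The regulators CDX1, CDX2, ISX and A1CF were each lower on both round 2 arrays than on both round 1 arrays, by small amounts, while CDH17 was higher and GPA33 lower in round 2 within each lineage. Of the 26 genes, 21 had a mean round difference under 0.2 in size, and in 14 the difference was smaller than the larger SD. In limma's test 0 of 14547 genes passed an adjusted p of 0.05 (background 0%). At an unadjusted p under 0.05 stood 1 of the 26, ISX, against 15% of all genes. With the site as a replicate block 0 passed and 3 had such a p (CDH17, GPA33 and MGAM), against 16.2%. MGAM was tested only because its round 2 ovary array was high, so nothing is read from its p or from its place in the counts between rounds.

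ISX had 5.89 on both round 2 arrays, against 6.07 in ovary and 6.14 in stomach in round 1 (probe set 8072636). The round difference was -0.21 ± 0.072 with an adjusted p of 0.312 by limma, the smallest of the set. CDX2 had 8.49 in ovary and 8.48 in stomach in round 2, against 8.53 and 8.69 in round 1, a difference of -0.12 ± 0.086 that ran from -0.20 to -0.040 without single arrays. CDX1 differed by -0.12 ± 0.081, with 8.01 in ovary and 8.12 in stomach in round 2, against 8.23 and 8.15 in round 1, and its difference ran from -0.18 to -0.070 without single arrays. For A1CF the difference was -0.14 ± 0.072. The fifth regulator, HNF4G, was higher in round 2 by 0.074 ± 0.073. All 5 regulators thus had groups that did not overlap between rounds, 4 lower and 1 higher, where 49% of all tested genes did not overlap, with the widest gap within a lineage at -0.24, for ISX in the stomach lines.

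CDH17 had 11.30 in ovary and 11.46 in stomach in round 2, against 10.73 and 11.21 in round 1. Both round 2 values were above both round 1 values, with a difference of 0.41 ± 0.18 (adjusted p = 0.371 by limma), 0.57 in the ovary lines and 0.25 in the stomach lines. Without single arrays it lay between 0.17 and 0.65. GPA33 had 10.43 in ovary and 10.76 in stomach in round 2, against 10.69 and 11.19 in round 1. It was lower in each lineage, by -0.26 and -0.43, but the groups overlapped across the sites, and the mean difference was -0.35 ± 0.21 (adjusted p = 0.462 by limma). Leaving out single arrays moved it between -0.60 and -0.098.

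USH1C had 8.05 in ovary and 8.17 in stomach in round 2, against 8.47 and 8.23 in round 1. The difference was -0.42 in the ovary lines and -0.061 in the stomach lines, and its mean of -0.24 ran from -0.36 to -0.12 without single arrays. CDHR2 had 5.71 in ovary and 6.01 in stomach in round 2, against 6.03 and 6.02 in round 1, so that its difference lay almost wholly in the ovary lines. DPP4, in contrast to its separation by site, did not separate by round: it differed by -0.042 in the ovary lines and 0.034 in the stomach lines.

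MGAM had 7.27 in ovary and 5.51 in stomach in round 2, against 4.90 and 4.94 in round 1. Both round 2 values were higher, by 2.37 in the ovary lines and 0.57 in the stomach lines, and the mean difference was 1.47 ± 0.58 (adjusted p = 0.343 by limma). The stomach value of round 2 was still under the signal minimum, and without the round 2 ovary array the difference was 0.59. CA2 was higher in round 2 in each lineage, by 0.19 in ovary and 0.20 in stomach, with 6.54 and 6.29 in round 2, against 6.36 and 6.09 in round 1. Its mean of 0.19 ran from 0.059 to 0.32 without single arrays.

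**Figure D4:**
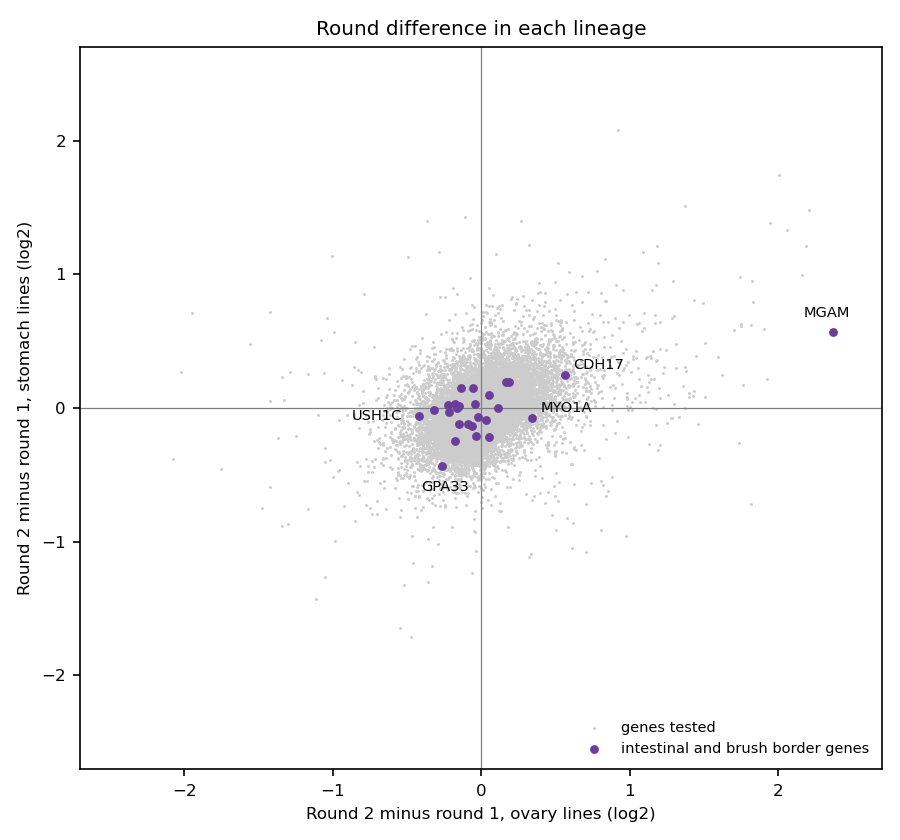
Round 2 minus round 1 in the ovary lines (horizontal axis) and in the stomach lines (vertical axis), in log2 units, for the 14547 tested genes (grey) and the 26 tested intestinal and brush border genes (purple). MGAM stands far to the right at 2.37, CDH17 is higher in both lineages and GPA33 lower in both.

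In all, 11 of 26 genes (42.3%) did not overlap between the rounds, against 49% of all tested genes. Of these, 3 were higher in round 2 (CDH17, MGAM and HNF4G; background 22.2%) and 8 were lower (ISX, CDX1, CDX2, A1CF, USH1C, CDHR2, APOA1 and VIL1; background 26.8%). The mean difference was below 0 in 17 of 26, against 54.5% of all genes, and its median was -0.070, where that of all tested genes was -0.019. Between single arrays, 1 gene was at least 1.5-fold apart in the ovary lines (MGAM; background 3.39%) and 0 in the stomach lines (background 2.17%). At 2-fold the counts were 1 in the ovary lines, MGAM again (background 0.894%), and 0 in the stomach lines (background 0.261%).

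When the variation of the 26 genes across arrays was split into sums of squares, 34.2% lay between sites, 47.6% between rounds and 18.2% in the interaction of site and round. Over all tested genes the shares were 26.6%, 51.5% and 21.9%. MGAM dominated the first set of shares: over the other 25 genes they were 59.0%, 29.2% and 11.8%. Squares give most weight to the few large site differences among these 25, those of DPP4 (0.57), MYO1A (-0.53), MEP1A (-0.42) and GPA33 (-0.41). A mean site difference under 0.2 in size was found in 19 of the 26 genes, so the 59.0% does not describe most of the set. A single factor for the interaction, fitted over all 4 arrays, called 0 of 14547 genes by limma (194 had an unadjusted p under 0.05, 1.33%), and 0 of the 26 had an unadjusted p under 0.05. It was below 0 in 14 of 26 (background 45.2%). The largest interaction values, the site difference of round 2 minus that of round 1, divided by 2, were 0.90 for MGAM, 0.21 for MYO1A, -0.18 for USH1C and 0.16 for CDH17. For MYO1A this is the smaller gap between the sites in round 2, where the ovary line was 0.34 above its round 1 value and the stomach line -0.075.

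Further genes of the same cell type were taken from lists drawn up beside the set. For both comparisons, 0 genes of these lists passed limma's test after adjustment. Of 20 further brush border structure genes, 18 were tested, and 11 were lower in ovary. Among all 18, the groups did not overlap in 8 genes lower in ovary and 2 higher, EPS8 and MISP. The backgrounds over all tested genes were 11.2% lower and 13.4% higher. The median was -0.058. By mean difference MUC17, a membrane mucin of the enterocyte surface, was lowest (-0.95). Next was MYO7B, the myosin that works with USH1C at microvillus tips (-0.35). Its groups overlapped, with a difference of -0.65 in round 1 and -0.042 in round 2. MISP (0.29) and EPS8 (0.090) lay on the other side. The same list was lower in round 2 in 2 of 18 and higher in 16, where 54.5% of all tested genes were lower, with a median of 0.092. Its groups did not overlap between rounds in 5 genes higher and 2 lower (backgrounds 22.2% and 26.8%). By mean difference MUC17 (0.50), whose groups overlapped between rounds, and MYO7B (0.48) were highest, while BAIAP2L2 (-0.14) and MUC13 (-0.090) were lowest. MYO7B had 8.39 and 9.17 in the ovary lines of rounds 1 and 2, against 9.05 and 9.22 in the stomach lines, so that its round 1 ovary value was the low one.

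Of 19 further regulators 14 were tested, with 8 lower in ovary. By mean difference KLF4, a factor of differentiated epithelium (0.35), and PRDM1 (0.17) were highest there, VDR, the vitamin D receptor (-0.16), and ELF3 (-0.12) lowest. Of these only KLF4 kept its sign in both rounds. PRDM1 differed by -0.20 in round 1 and 0.55 in round 2, VDR by -0.41 and 0.093, and ELF3 by -0.25 and 0.012. Between rounds 9 were higher in round 2, led by PRDM1 (0.76) and VDR (0.36), and the lowest were GATA4 (-0.34), a factor of the proximal gut, and ONECUT2 (-0.26). Of 31 further hydrolases and transporters 16 were tested, 9 of them lower in ovary. The iron exporter SLC40A1 (-0.56) and SLC7A9 (-0.12) stood lowest, the folate transporter SLC46A1 (0.21) and the efflux pump ABCG2 (0.13) highest. For SLC40A1 the site difference was -0.99 in round 1 and -0.12 in round 2. In round 2, 13 of these 16 were lower, with ABCG2 at -0.59 and the amino acid transporter SLC6A19 at -0.37, and SLC51A (0.21) and SLC7A9 (0.057) were highest.

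Of 20 further lipid and metabolic genes 16 were tested, 10 of them lower in ovary, with MOGAT2, which rebuilds triglyceride (-0.44), and BCO1, the carotene-cleaving target of ISX (-0.39), lowest. MOGAT2 had 5.81 and 5.45 in the ovary lines of rounds 1 and 2, against 6.15 and 5.99 in the stomach lines. Its stomach arrays carried its mean over the signal minimum, so nothing is read from its place here. BCO1 had 9.13 and 9.23 in the ovary lines of rounds 1 and 2, against 9.46 and 9.69 in the stomach lines. CYP4F2 (0.14) and NPC1L1 (0.12), the cholesterol importer, had the highest mean site differences, though NPC1L1 differed by -0.044 in round 1 and 0.29 in round 2. Between rounds CYP4F2 and PLIN3 (0.25 each) were highest in round 2, FABP6 (-0.37) and MOGAT2 (-0.26) lowest, and 9 of 16 were lower. For FABP6 the round difference was 0.0021 in the ovary lines and -0.75 in the stomach lines. Of 19 further intestinal markers 13 were tested and 10 were lower in ovary. GUCA2A, the GUCY2C ligand guanylin (-0.38), and TM4SF4 (-0.29) had the lowest mean site differences, KRT20 (0.97) and TSPAN8 (0.31) the highest. TSPAN8 did not keep its sign, with 1.04 in round 1 and -0.42 in round 2. The stomach values of KRT20 were 5.74 in round 1 and 5.28 in round 2. Its ovary arrays carried its mean over the signal minimum, so nothing is read from its place in either comparison. Guanylin had 7.89 in ovary and 7.92 in stomach in round 2, against 8.35 and 9.08 in round 1, a round difference of -0.81. KRT20 differed by -0.71 between rounds, TSPAN8 by 0.44 (-0.28 in the ovary lines and 1.17 in the stomach lines) and FUT3 by 0.31.

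**Figure D5:**
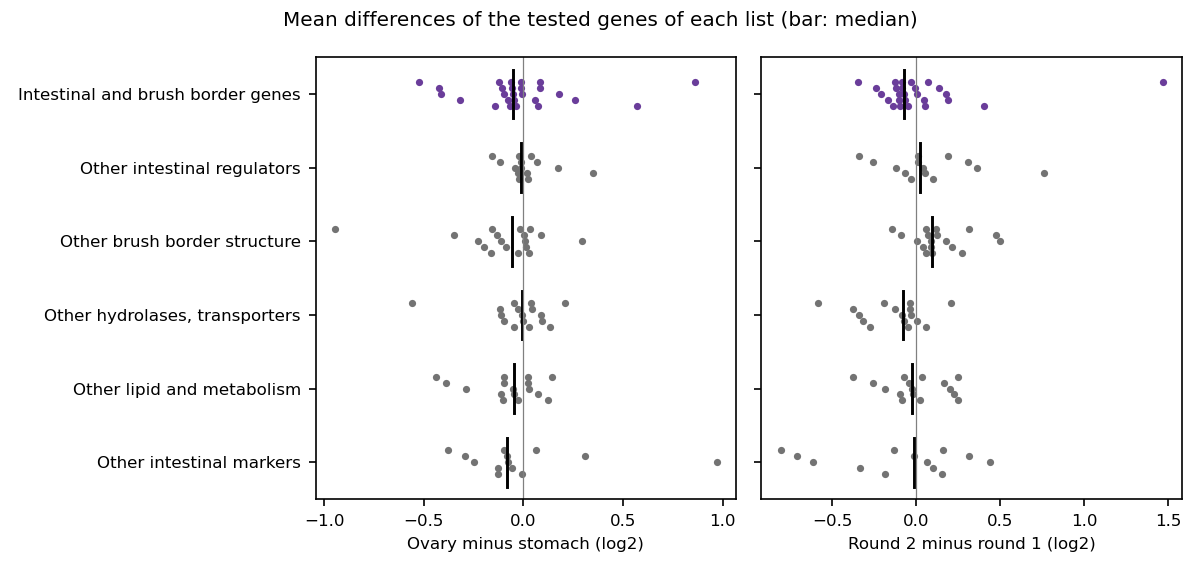
Mean difference of each tested gene (points) and the median (bar), in log2 units, for the 26 intestinal and brush border genes (purple) and the 5 further lists (grey), with ovary minus stomach on the left and round 2 minus round 1 on the right. The site medians of all lists lie between -0.083 and -0.0051, and the further brush border genes have the highest round median, 0.092.

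Markers of other cell types were counted in the same way, and 0 of them passed limma's test after adjustment. Of 17 measured gastric markers 10 were tested, 5 higher and 5 lower in ovary. The stomach pit mucosa peptide TFF1 (-1.48) stood furthest apart. Goblet and secretory markers were lower in ovary in 7 of 10, with TFF3 at -0.81, endocrine markers in 2 of 5 and stem cell markers in 1 of 2. Of 9 measured hepatocyte markers, of interest because liver shares the apolipoprotein genes, 3 were tested and all 3 had a lower mean in ovary. SERPINA1 differed by -1.04, with -2.01 in round 1 and -0.072 in round 2. TF differed by -0.21 and TTR by only -0.0086, and ALB was under the signal minimum. Leukocyte markers were lower in ovary in 4 of 4 tested of 8 measured, by a median of -0.062, with summed log2 levels between 44.8 and 44.9 in ovary and of 45.4 in stomach; PTPRC, CD3E, AIF1 and FCER1G were under the minimum. Fibroblast markers were lower in 4 of 5, with sums of 41.5 to 41.8 in ovary and 41.5 to 42.4 in stomach, and endothelial markers in 2 of 2, with PECAM1 under the minimum. Of 5 tested ovarian markers 4 had a higher mean in ovary, and the median of the 5 was 0.060. The groups overlapped between the sites in all 5. Of 3 mesothelial markers 2 had a higher mean in ovary. The host was the mouse and the probe sets are named for human genes. What they read of mouse transcripts was not tested, so these counts are no measure of host tissue. The part of these markers in the site differences above was not tested.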

How the data were processed

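Total RNA from TRIzol lysates of cell pellets was biotinylated for Affymetrix arrays, per the labels' protocols. The deposited table has 33297 rows of log2 values for 4 arrays, the scale being inferred from the values. The submitters' processing notes name Affymetrix Expression Console, and the normalization the authors used is not given in these sources. Array medians ran from 6.80 to 6.84.

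Sites and rounds were taken from the titles. Rows naming 1 gene (19460) were kept, symbols were updated through a RefSeq table (GRCh38.p14), and the probe set with the highest mean stood for a gene. Genes above the 30th percentile of all rows were fitted by lmFit and eBayes of limma 3.58.1 under R 4.3.3 (all 4 arrays, two-sided, Benjamini-Hochberg over 14547 genes). P-values measure only the spread between these arrays. The script was tested on simulated data. The genes, lists and tests were chosen with earlier results of these data known. Values on every array are given for the tested genes with the 6 largest mean differences in each of the site, round and interaction contrasts and for CDX1, CDX2, HNF4G, CDH17 and VIL1; from the further lists, the 2 furthest apart per direction are named.

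Round numbers are shared by both sites, and across genes the round differences of the lineages correlated at 0.411, so blocked fits were run. Promoter sequences are from RefSeq. Alternatives were other signal minima, quantile normalization, median centring, mean probe sets, trended and robust priors, a looser adjusted p, blocks, single arrays left out and, chosen after seeing the data, exchanged round 2 arrays. Figures were drawn with matplotlib 3.10.9.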

Additional observations from a re-analysis of the deposited data

Results flagged for a closer look

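For ANPEP, aminopeptidase N, the round difference had opposite signs in the lineages, -0.14 in the ovary lines and 0.15 in the stomach lines, with 1 array per line. Both were at least 0.1 in size, the bound used to list such genes. The single-factor fit of the interaction gave -0.14 ± 0.095 with an adjusted p of 1 by limma.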

How the results depend on the processing

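The count of genes called by limma was 0 for sites, rounds and the interaction under all alternatives run at an adjusted p of 0.05, the fits with a replicate block included (0 for sites, 0 for rounds), and at 0.10 in the unaltered fit. The smallest adjusted p for rounds was 0.149, and 0.0863 with median centring. No named difference of the 26 genes passed. The median site difference was -0.014 without the signal minimum, 0.0087 with the round 2 arrays exchanged, and -0.088 to 0.0051 when single arrays were left out. Signs turned when single arrays were left out for MGAM (-0.32 to 2.05), CDX1 (-0.12 to 0.096), CDX2 (-0.18 to 0.028), HNF4G (-0.098 to 5.05e-05) and VIL1 (-0.043 to 0.025), all between sites. With the round 2 arrays exchanged they turned for MGAM (-0.90), MEP1A (0.014), CDX1 (0.094), HNF4G (0.024), A1CF (0.013), LGALS4 (0.085), CDHR2 (0.15) and CDHR5 (0.12). The cause was not tested, beyond that the exchange swaps 2 arrays. Counts of genes not overlapping ran from 6 to 9 between sites and from 8 to 13 between rounds. The number of genes counted changed with the signal minimum, up to all 32 measured genes without one. Shares over all genes were computed in the unaltered setting alone (24.6% between sites and 49% between rounds), so these ranges are not read against a background. Signals near the minimum limit MGAM, MEP1B and SI. The means of ISX, CDHR2, CA2, SLC2A5, ANPEP and APOA4 were also low, under the stricter minimum of 6.82, so these genes were not tested at that setting.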
